A study of Mus musculus with 6 samples.

Results

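The 68 interleukin and interleukin receptor genes of the mouse heart were described here. They were chosen from a table of 30914 genes as those whose symbol begins with Il and a digit and whose listed transcript types include a protein-coding one, whatever their level. By role, 26 encoded ligands, 36 receptor chains, 5 inhibitors or decoy receptors, and 1, Il4i1, an amino acid oxidase that carries the name only. The level was given as FPKM, the number of fragments scaled to transcript length and to the mapped total, which allows genes of different length to be compared. A gene was counted as detected where 3 or more of the 6 libraries reached 0.5 FPKM, and 23 of the 68 reached this threshold (5 ligands, 17 receptor chains and the inhibitor Il18bp).

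RNA was sequenced from heart tissue of 6 wild-type male C57BL/6J mice that were 8 weeks old at the start. All of them received angiotensin II (Ang II), a hormone that raises blood pressure and makes the heart muscle thicken, at 1 μg/kg/min for 4 weeks from an osmotic pump. In 3 of them (Ang II + Tec) the flavonoid tectochrysin (Tec) was also given, at 5 mg/kg during the final 2 weeks, and the other 3 formed the Ang II group. No library of mice without Ang II was analysed here, so each difference is between treated and untreated Ang II hearts. The labels number the hearts within each group but do not name the mice, and the p-values measure the spread between these libraries.

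Interleukins are small secreted proteins by which immune and tissue cells signal to each other, mostly over short distances. Most act through a receptor of paired chains, one specific for the ligand and one shared by a family, such as gp130, the common gamma chain or the IL-1 receptor accessory protein. The chains start either the JAK and STAT proteins or, for the IL-1 and IL-17 families, adaptors that lead to NF-κB. In the heart, resident macrophages, fibroblasts, endothelial cells and cardiomyocytes each carry some of these receptors. In RNA from bulk tissue, fewer cells of a type and less RNA per cell cannot be told apart.

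The libraries differed in more than the treatment. Cardiomyocyte markers were abundant in all 6 (summed FPKM of 6 genes from 7282 to 8965), whereas Myl7, the light chain of atrial myosin, had 419 and 332 FPKM in Ang II replicates 1 and 2, 1040 in Ang II + Tec replicate 2, but 0, 0 and 1.58 in the others. Ang II replicates 1 and 2 also held far more of 7 fibroblast markers (627 and 810 FPKM summed) than Ang II replicate 3 (134) and the Ang II + Tec libraries (113 to 190). At an unadjusted p under 0.05 (limma), 4 of the 7 were lower with Tec, against 16.5% of all genes, and none was called. Their median log2 fold change was -2.33, against -0.17 for all genes. Over all 6 libraries the summed FPKM of the markers ranged from 58.8 to 72.6 for endothelial cells, from 2.58 to 5.13 for B cells, from 0.33 to 3.24 for neutrophils, from 1.35 to 3.75 for mast cells and from 1.07 to 50.6 for skeletal muscle. The relative depth, estimated from the spacing of the lowest FPKM, ranged from 0.932 to 1.21. The match to this spacing was weak in every library (scores of 0.062 to 0.155, where 1 is a perfect match), so these depths are rough. By the same approximate estimate, 1 fragment on a transcript of 1 kb was worth 0.0244 to 0.0317 FPKM, so values under 0.1 FPKM rest on very few fragments.

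The promoters of 4 members are shown because they hold motifs of the factors that interleukins act through or answer to. Il6 and Il16 encode ligands and Il1r1 the signalling receptor of IL-1, and each holds a match to the κB consensus, bound by NF-κB. Il33 encodes an alarmin and holds a match to a spacing preferred by STAT6. Each sequence is the 250 bases before the transcription start of the RefSeq promoter table (GRCm38.p6), 5′ to 3′ on the strand of the gene, with the match in capitals. Il6 lies at chr5:30012864-30013113 (plus strand), Il16 at chr7:83655496-83655745 (minus strand), Il1r1 at chr1:40266336-40266585 (plus strand) and Il33 at chr19:29924863-29925112 (plus strand). The windows of Il16 and Il1r1 lie inside the spans of these genes in the deposited table (chr7:83642825-83745726 and chr1:40225080-40317257), so they belong to internal starts.
Il6: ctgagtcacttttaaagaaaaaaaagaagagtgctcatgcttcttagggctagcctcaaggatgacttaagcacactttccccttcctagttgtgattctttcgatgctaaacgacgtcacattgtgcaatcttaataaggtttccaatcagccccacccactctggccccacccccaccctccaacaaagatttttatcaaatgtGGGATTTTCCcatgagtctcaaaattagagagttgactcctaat
Il16: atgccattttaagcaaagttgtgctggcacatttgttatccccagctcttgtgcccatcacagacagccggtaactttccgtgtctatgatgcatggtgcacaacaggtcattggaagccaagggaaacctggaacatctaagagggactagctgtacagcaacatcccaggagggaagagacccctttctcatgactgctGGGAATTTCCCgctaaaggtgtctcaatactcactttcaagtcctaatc
Il1r1: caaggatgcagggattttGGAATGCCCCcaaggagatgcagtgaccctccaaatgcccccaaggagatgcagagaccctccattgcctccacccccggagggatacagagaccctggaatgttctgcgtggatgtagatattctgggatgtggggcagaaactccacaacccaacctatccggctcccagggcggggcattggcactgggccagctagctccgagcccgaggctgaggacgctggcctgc
Il33: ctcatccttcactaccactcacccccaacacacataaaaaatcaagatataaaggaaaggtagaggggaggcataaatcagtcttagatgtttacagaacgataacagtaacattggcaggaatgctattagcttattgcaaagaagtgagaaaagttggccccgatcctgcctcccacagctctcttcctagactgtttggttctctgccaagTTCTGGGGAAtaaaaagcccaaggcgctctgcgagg
The match begins 44 bases before the start in Il6, 36 bases before it in Il33 and 232 bases before it in Il1r1, where it is on the opposite strand. In Il16 the matches on both strands overlap, 49 and 48 bases before the start. The gene Il4ra has a κB match 20 bases after its start.

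A window of 250 bases before to 50 bases after the start was listed for 52 of the 68 members (18 of the 23 detected). Some genes, such as Il18r1, had windows of more than 1 start, and a gene was counted where any of its windows held the motif. On either strand, the κB consensus was found in 3 of the 18 detected members (16.7%: Il16, Il1r1 and Il4ra), in 5 of 34 members below the threshold (14.7%: Il12rb2, Il19, Il22ra1, Il2ra and Il6) and in 9.55% of the 27025 genes of that table. The STAT motif TTCNNNGAA was found in 1 of the 18 detected members (Il17d), in 7 of the 34 others (20.6%) and in 9.55% of all genes. The STAT6-type motif, with the gap longer by 1 base, was found in 1 of the 18 (Il33), in 8 of the 34 (23.5%) and in 8.01% of all genes. The TATA box TATAAA was found in 2 of the 18 (11.1%: Il1rl2 and Il33), in 8 of the 34 (23.5%), among them Il1a, Il1b and Il17a, and in 15.7% of all genes. These counts describe letters in the windows and not binding.

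A larger share of the receptor chains than of the ligands was detected (17 of 36 against 5 of 26). The median of the mean FPKM over the 6 libraries was 0.398 for the 36 receptor chains and 0.0625 for the 26 ligands, but among the detected members it was 2.27 for receptor chains and 3.98 for ligands. The 5 members with a mean of at least 10 FPKM were Il10rb, Il11ra1, Il13ra1, Il15 and Il6st, of which Il15 alone encodes a ligand. Of the 45 members below the threshold, 4 were listed at 0 in every library (Il12b, Il17a, Il5ra and Il1rapl1), and 41 did not reach 0.5 FPKM in any library.

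**Figure D1:**
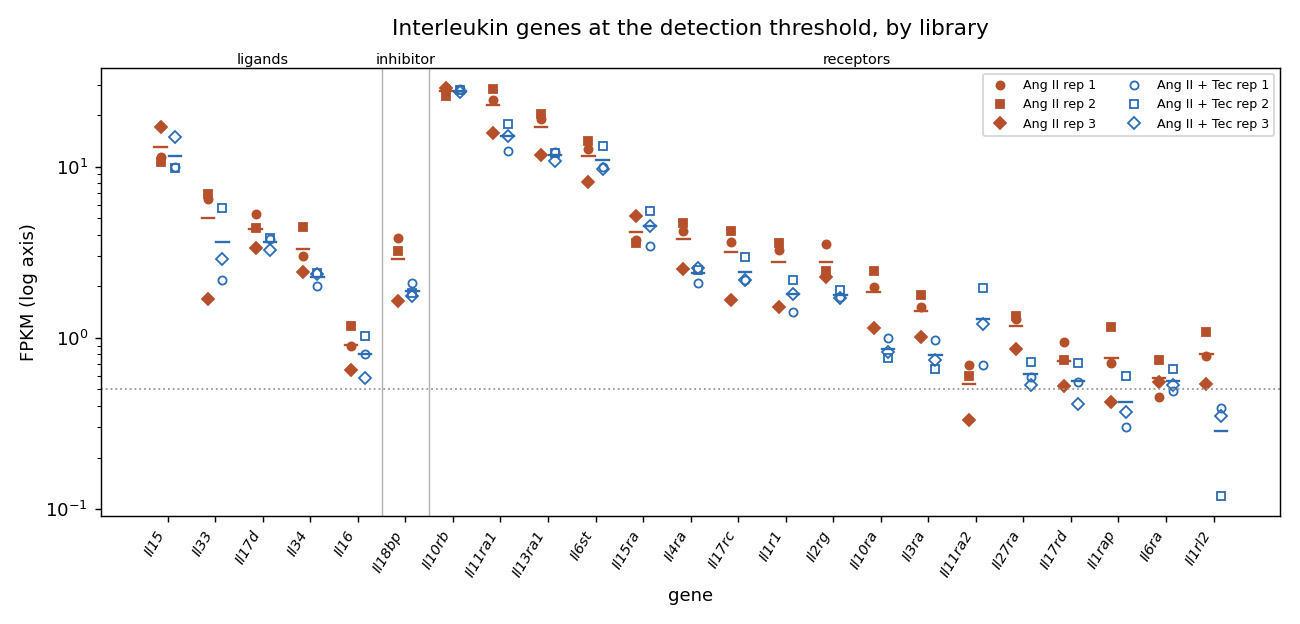
FPKM (log axis) of the 23 detected interleukin genes in each library, by role and falling mean. Filled symbols are the 3 Ang II libraries, open symbols the 3 Ang II + Tec libraries, short lines the group means, and the dotted line is 0.5 FPKM. Il10rb lay between 25.8 and 28.8 FPKM in all 6 libraries, and Il1rl2 between 0.12 and 1.08.

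The question put to these libraries was which interleukin genes differed between hearts given Tec and hearts given Ang II alone. Values of log2(FPKM + 1) were compared with limma over the 13089 genes that reached the threshold, and a gene was called changed at an adjusted p (Benjamini-Hochberg) under 0.05 and a log2 fold change of at least 1 in either direction. None of the 23 members was called (0.160% of all genes tested were), and the lowest adjusted p of a member was 0.221. At an unadjusted p under 0.05 with limma, 6 of the 23 members were lower with Tec (26.1%, against 16.5% of all genes), all of them receptor chains: Il10ra, Il27ra, Il1rl2, Il3ra, Il2rg and Il4ra. At the same limit 1 was higher, Il11ra2 (2.09% of all genes). The FPKM of the groups did not overlap for 6 of the 23 members, all lower with Tec (26.1%, against 18.9% of all genes), and for 0 in the other direction (2.90% of all genes). Il1rl2 is in both counts of 6. It reached the threshold through its Ang II libraries alone, so that its groups had to be apart, and it adds no support to either count.

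The count of 6 depended on single libraries. Without Ang II replicate 3 it was 15, without Ang II replicate 1 it was 3, and without Ang II + Tec replicate 3 it was 3. The share of all genes lower at that limit moved with it, to 39.3%, 6.29% and 7.6%. Without Ang II replicate 3, 12 members had an adjusted p under 0.05 in limma, with Il13ra1 lowest (adjusted p = 0.00653). The share of all genes at that adjusted p was not computed, so this count of 12 is no result about the members. In the same fit 557 of all genes were called, which also needs a log2 fold change of at least 1. No member was called, since none reached that fold change. Leaving out a library of the Ang II group that was low for a gene raises such counts by its construction.

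Most members were lower with Tec, as were most genes. The log2 fold change was below 0 for 20 of the 23 members (87.0%, against 80.0% of all genes), with a median of -0.31 for the members and -0.17 for all genes. The median was -0.39 for the 17 receptor chains and -0.19 for the 5 ligands. After median-of-ratios scaling of the libraries, which sets a typical gene level across them and moved the median of all genes to 0.0087, 15 of the 23 members were below 0 (65.2%, against 48.2% of all genes). On that scale the median was -0.19 for the members, -0.22 for the receptor chains and 0.0053 for the ligands. Il15, Il16, Il17d, Il6st and Il6ra turned from below to above 0.

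**Figure D2:**
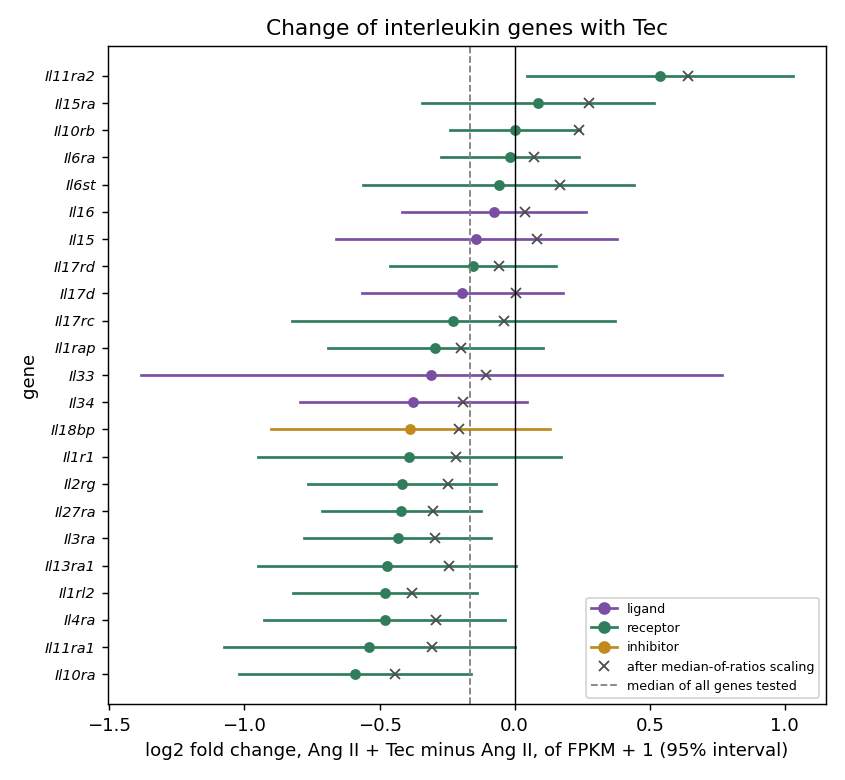
Log2 fold change (Ang II + Tec minus Ang II, of FPKM + 1) of the 23 detected members with its 95% interval from limma. Crosses give the value after median-of-ratios scaling, and the dashed line the median of all genes tested (-0.17). The intervals of Il10ra, Il4ra, Il1rl2, Il3ra, Il27ra and Il2rg lie below 0 and that of Il11ra2 above it. Il1rl2 reached the threshold through its Ang II libraries alone.

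Among the ligands, Il15, which keeps natural killer and memory T cells alive, was the most abundant. It was at 11.3, 10.6 and 16.9 FPKM in Ang II replicates 1, 2 and 3 and at 9.97, 9.87 and 15.0 in Ang II + Tec replicates 1, 2 and 3. The libraries numbered 3 were the highest of both groups, and the groups overlapped, with a log2 fold change of -0.14 ± 0.22 (SE, adjusted p = 0.707, limma). Il15ra, the chain that holds IL-15 on the surface of the presenting cell, was at 3.75, 3.60 and 5.12 FPKM with Ang II and at 3.43, 5.53 and 4.52 with Tec, and the groups overlapped (log2 fold change 0.09 ± 0.18). Il2rb, which the responding cell needs to signal for IL-15, reached 0.20 FPKM at most. Summed over 10 markers of T and NK cells, the FPKM was 0.34 to 0.67 in the Ang II libraries and 0.40 to 0.71 in the Ang II + Tec libraries, and none of the 10 reached the threshold.

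Il33, an alarmin kept in the nucleus of fibroblasts and endothelial cells and released on injury, varied most between libraries among the detected ligands. It was at 6.47, 6.94 and 1.68 FPKM with Ang II and at 2.19, 5.77 and 2.88 with Tec. The 3 high values were those of the libraries with atrial Myl7, and the groups overlapped (log2 fold change -0.31 ± 0.46, adjusted p = 0.692, limma). With the libraries above 100 FPKM of Myl7 as a covariate, an analysis added after seeing the data, the log2 fold change of Il33 was 0.10 (unadjusted p = 0.538, limma). The adipocyte markers were also highest in Ang II + Tec replicate 2 (62.9 FPKM summed, against 0.15 to 9.93 in the other 5). What the dissection or these cells contributed to Il33 was not tested. Il1rl1, the ST2 receptor that IL-33 binds, was low throughout, at 0.29, 0.14 and 0.21 FPKM with Ang II and 0.11, 0.23 and 0.26 with Tec.

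Il34, the second ligand of the macrophage growth factor receptor Csf1r, was the one detected ligand whose groups did not overlap. It was at 3.01, 4.42 and 2.44 FPKM with Ang II and at 2.00, 2.39 and 2.37 with Tec. The gap between the groups was narrow, from 2.39 to 2.44, and the log2 fold change was -0.38 ± 0.18 (adjusted p = 0.297, limma). Il34 was also the one ligand detected together with its whole listed receptor, Csf1r, which was at 10.1, 12.5 and 6.97 FPKM with Ang II and 6.22, 6.48 and 6.65 with Tec (log2 fold change -0.51 ± 0.19, adjusted p = 0.242, limma). Csf1, the other ligand of that receptor, was at 11.7, 12.1 and 8.62 FPKM with Ang II and 5.85, 7.02 and 5.92 with Tec, and its log2 fold change was -0.69 ± 0.15 (adjusted p = 0.185, limma).

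The remaining detected ligands overlapped between the groups. Il17d, a member of the IL-17 family, was at 5.29, 4.40 and 3.33 FPKM with Ang II and at 3.79, 3.81 and 3.27 with Tec (log2 fold change -0.19 ± 0.16). Il16, which attracts CD4+ cells, was at 0.90, 1.17 and 0.65 FPKM with Ang II and at 0.81, 1.03 and 0.58 with Tec (-0.08 ± 0.15). The lowest value of both genes was that of Ang II + Tec replicate 3, and both log2 fold changes turned above 0 after median-of-ratios scaling. Of the exon bases of Il16, 15.3% overlap the opposite-strand gene Stard5, and whether the quantification used strand is not given in the sources used here. Cd4, the receptor of IL-16, reached 0.21 FPKM at most.

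The inflammatory ligands Il6 and Il1b were below the detection threshold. Il6 had 0.17, 0.60 and 0.05 FPKM with Ang II and was listed at 0 in the 3 Ang II + Tec libraries. The groups did not overlap (exact permutation test, two-sided, p = 0.1, the smallest that 3 against 3 libraries can give), but the value of Ang II replicate 3 rests on very few fragments. Il1b was at 0.09, 0.37 and 0 FPKM with Ang II and at 0.15, 0.06 and 0.05 with Tec, and the groups overlapped (exact permutation p = 0.8). The proteins of both were assayed in serum in the study, and the libraries hold the RNA of the heart only. The study also lists Il1b RNA as lower with Tec in its sequencing data. In these same libraries the mean of Il1b with Tec was 0.57 times that with Ang II, from values below the threshold in every library.

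Il18, an IL-1 family ligand made as an inactive precursor, came closest to the threshold among the other low ligands. It was at 0.21, 0.99 and 0.38 FPKM with Ang II and at 0.24, 0.84 and 0.27 with Tec, with replicate 2 the highest in both groups (exact permutation p = 0.7). Il11, a gp130 cytokine made by activated fibroblasts, was at 0.10, 0.30 and 0.03 FPKM with Ang II and at 0.07, 0 and 0.05 with Tec. Il10, the main anti-inflammatory interleukin of macrophages, was at 0.17, 0.09 and 0 FPKM with Ang II and listed at 0 in the Ang II + Tec libraries. For both of these genes the groups overlapped. Il25, an IL-17 family ligand of type 2 responses, had its highest value in Ang II + Tec replicate 2 (0.35 FPKM) and was at 0 in Ang II replicates 1 and 3.

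**Figure D3:**
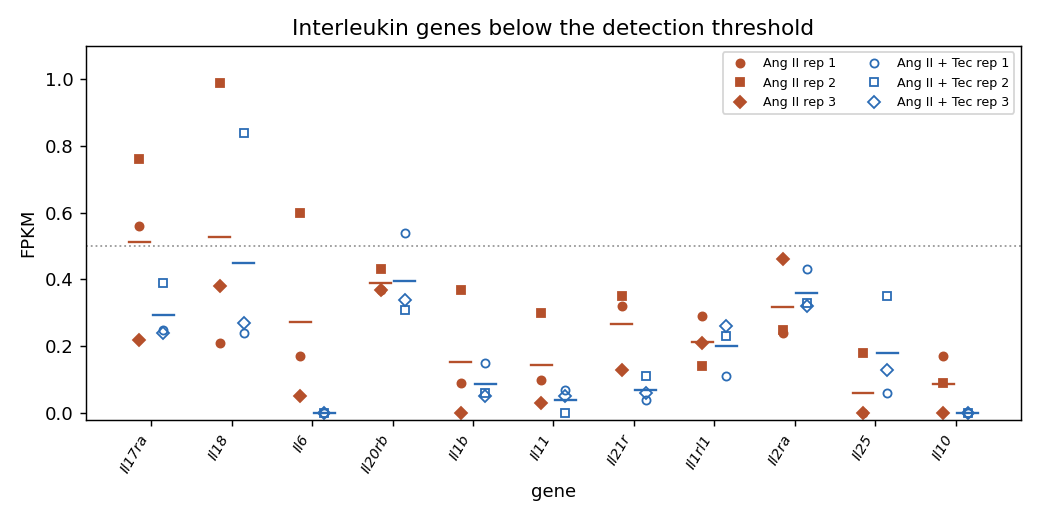
FPKM of 11 members below the detection threshold in each library. Filled symbols are Ang II and open symbols Ang II + Tec libraries, short lines the group means, and the dotted line is 0.5 FPKM. Il6 was at 0 in the 3 Ang II + Tec libraries, and its Ang II values spread from 0.05 to 0.60.

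Of the 45 members below the threshold, 4 had groups that did not overlap, all lower with Tec: Il6, Il5, Il9r and Il21r (8.89%, against 4.26% of the 17825 genes of the table below the threshold). With so few members no more can be read from this count. Il21r, a common gamma chain partner on lymphocytes, was at 0.32, 0.35 and 0.13 FPKM with Ang II and at 0.04, 0.11 and 0.06 with Tec (exact permutation p = 0.1, the smallest possible). Il5 and Il9r did not exceed 0.17 FPKM in any library. The mean was lower with Tec for 24 of the 45 members and higher for 17.

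Among the receptor chains, Il10rb, shared by the receptors of IL-10, IL-22 and the lambda interferons, had the highest level and the most even one. It was at 28.8, 25.8 and 28.7 FPKM with Ang II and at 28.3, 27.8 and 27.1 with Tec. The highest library was 1.12 times the lowest, the groups overlapped, and the log2 fold change was 0.00 ± 0.10 (95% interval -0.24 to 0.24, limma). After median-of-ratios scaling it was 0.24.

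Il10ra, the IL-10-specific partner of that chain on macrophages and lymphocytes, had the most negative log2 fold change of the members on this scale, while with a pseudocount of 0.1 Il1rl2 was lower (-1.26 against -0.97) and without Ang II replicate 3 Il33 was (-0.82 against -0.79). It was at 1.98, 2.45 and 1.14 FPKM with Ang II and at 1.00, 0.76 and 0.83 with Tec. Every Ang II + Tec library was below every Ang II library, with a log2 fold change of -0.59 ± 0.18 (unadjusted p = 0.0135, adjusted p = 0.221, limma with Benjamini-Hochberg). In every library it was far below Il10rb.

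Il2rg, the common gamma chain of the receptors of IL-2, IL-4, IL-7, IL-9, IL-15 and IL-21, was at 3.54, 2.47 and 2.26 FPKM with Ang II and at 1.74, 1.91 and 1.70 with Tec. The groups did not overlap, and the log2 fold change was -0.42 ± 0.15 (unadjusted p = 0.0249, adjusted p = 0.234, limma with Benjamini-Hochberg). Its exons share 30.5% of their bases with the gene Gm20489 on the same strand (0.0617 FPKM on average), so the division of fragments between both is uncertain. Il3ra, the IL-3-specific chain, was at 1.51, 1.77 and 1.01 FPKM with Ang II and at 0.97, 0.66 and 0.74 with Tec, also without overlap (log2 fold change -0.43 ± 0.15, adjusted p = 0.229, limma). Csf2rb, with which it signals, stayed below the threshold.

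Il27ra, which pairs with gp130 for IL-27 and restrains T cells, was at 1.29, 1.35 and 0.86 FPKM with Ang II and at 0.59, 0.72 and 0.53 with Tec. The groups did not overlap, and this gene had the lowest unadjusted p of the members (log2 fold change -0.42 ± 0.13, unadjusted p = 0.0116, adjusted p = 0.221, limma). Il1rl2, the receptor of the IL-36 cytokines, was at 0.78, 1.08 and 0.54 FPKM with Ang II and at 0.39, 0.12 and 0.35 with Tec (log2 fold change -0.48 ± 0.15, adjusted p = 0.221, limma). It reached the threshold through its Ang II libraries alone, so that its groups had to be apart, and its difference supports nothing further.

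Macrophage markers were also lower in the Ang II + Tec libraries. Of 10 markers of macrophages and monocytes, 9 were tested and all 9 were lower with Tec at an unadjusted p under 0.05 (limma), with a median log2 fold change of -0.86, against 16.5% and -0.17 for all genes. After median-of-ratios scaling the median was -0.69 for these markers and 0.0087 for all genes. Among the 9, Ccr2 reached the threshold through its Ang II libraries alone, so that its groups had to be apart, and it adds no support. None of the 9 was called, and C1qa, a complement component made by resident macrophages, had an adjusted p of 0.154. Summed over all 10 markers, the FPKM was 357, 541 and 275 with Ang II and 186, 184 and 203 with Tec. Within the groups the chains did not follow this sum alike: Il10ra, Il3ra and Il27ra had its order of the Ang II libraries, as the fibroblast sum also had, Il2rg did not, and none of the 4 had its order of the Ang II + Tec libraries. The most abundant, Lyz2, a lysozyme of myeloid cells, was at 163, 290 and 135 FPKM with Ang II and at 107, 97.0 and 107 with Tec. The part of macrophage RNA in the values of the receptor chains was not tested.

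**Figure D4:**
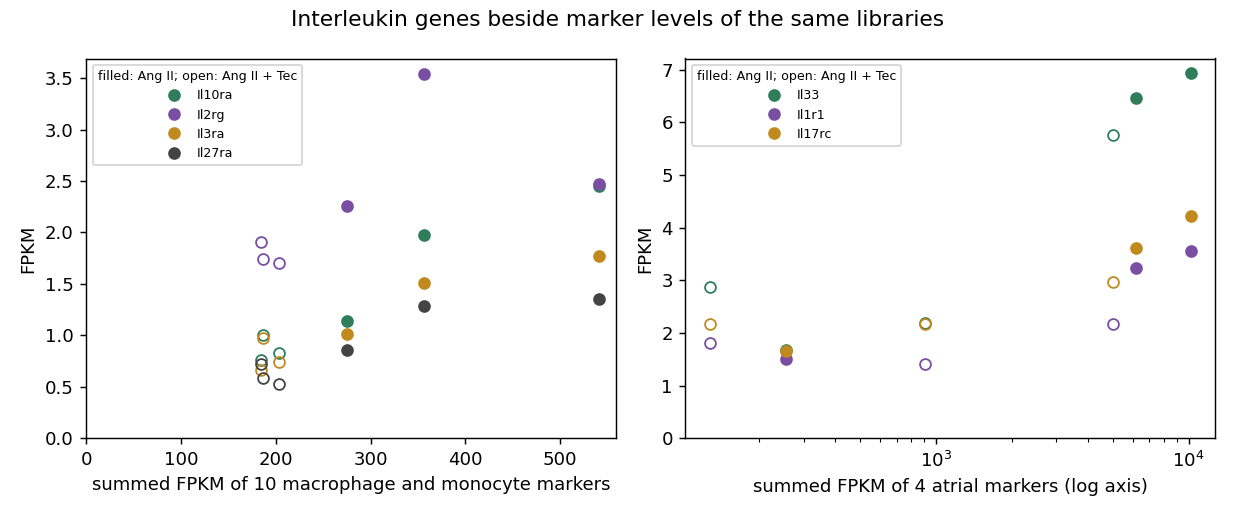
FPKM of interleukin genes against the summed FPKM of marker genes in the same library. Left, 4 receptor chains against 10 macrophage and monocyte markers; right (log x axis), Il33 and 2 receptor chains against 4 atrial markers. Filled symbols are Ang II and open symbols Ang II + Tec libraries. The Ang II + Tec libraries lie between 184 and 203 FPKM of macrophage markers, below all Ang II libraries (275 to 541), and the 3 libraries high in atrial markers have 5.77 to 6.94 FPKM of Il33.

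The chains of the type 2 receptor for IL-4 and IL-13, which drive alternative macrophage activation and fibrosis, had similar patterns. Il4ra was at 4.18, 4.69 and 2.54 FPKM with Ang II and at 2.10, 2.48 and 2.56 with Tec. Il13ra1 was at 19.0, 20.3 and 11.7 FPKM with Ang II and at 12.2, 12.0 and 10.8 with Tec. In both genes Ang II replicates 1 and 2 were far above the rest, and replicate 3 lay among the Ang II + Tec libraries. The log2 fold change was -0.48 ± 0.19 for Il4ra (unadjusted p = 0.0379, adjusted p = 0.252, limma) and -0.47 ± 0.20 for Il13ra1 (adjusted p = 0.271, limma). The decoy Il13ra2 reached 0.07 FPKM at most. Il4, which the table lists without a protein-coding transcript and which is therefore no member, was at 0.11 to 0.32 FPKM.

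Of the receptors that signal through gp130, Il11ra1, the IL-11-specific chain of fibroblasts and cardiomyocytes, was the most abundant. It was at 24.4, 28.3 and 15.7 FPKM with Ang II and at 12.4, 17.8 and 15.1 with Tec, and the groups overlapped through replicate 3 of the Ang II group. Its log2 fold change was -0.54 ± 0.23 (unadjusted p = 0.0501, adjusted p = 0.268, limma). Il11ra2, its near copy on the same chromosome, went the other way, at 0.69, 0.60 and 0.33 FPKM with Ang II and at 0.69, 1.96 and 1.20 with Tec (log2 fold change 0.54 ± 0.21, unadjusted p = 0.0361, adjusted p = 0.249, limma). Of the stretches of 50 bases in the transcripts of Il11ra2, 59.3% also occur in those of Il11ra1, so its values are uncertain. With both genes added, an analysis chosen after seeing the data, the sums were 25.1, 28.9 and 16.0 FPKM with Ang II and 13.1, 19.8 and 16.3 with Tec.

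The shared gp130 chain itself, Il6st, was at 12.6, 14.0 and 8.10 FPKM with Ang II and at 9.92, 13.2 and 9.65 with Tec. Il6ra, which binds IL-6, was at 0.45, 0.74 and 0.55 FPKM with Ang II and at 0.49, 0.66 and 0.53 with Tec. The groups overlapped fully in both, with log2 fold changes of -0.06 ± 0.21 for Il6st and -0.02 ± 0.11 for Il6ra. In every library Il6st was far above Il6ra.

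The IL-1 receptor chains were highest in Ang II replicates 1 and 2, the libraries with most fibroblast marker RNA and most macrophage marker RNA. Both also held atrial Myl7, as did Ang II + Tec replicate 2. The part of each of these tissues or cells in the receptor values was not tested. Il1r1 was at 3.24, 3.56 and 1.51 FPKM with Ang II and at 1.42, 2.17 and 1.81 with Tec (log2 fold change -0.39 ± 0.24). The accessory chain Il1rap, which IL-1, IL-33 and IL-36 share, was at 0.71, 1.16 and 0.42 FPKM with Ang II and at 0.30, 0.60 and 0.37 with Tec (-0.29 ± 0.17). In both, Ang II replicate 2 was highest, and the groups overlapped. The decoy receptor Il1r2 and the receptor antagonist Il1rn reached 0.15 and 0.06 FPKM at most.

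Il18bp, a secreted protein that captures IL-18, was the only detected inhibitor. It was at 3.82, 3.20 and 1.65 FPKM with Ang II and at 2.08, 1.83 and 1.76 with Tec. Ang II replicate 3 was the lowest of all 6, so the groups overlapped (log2 fold change -0.39 ± 0.22, adjusted p = 0.35, limma). Its level was above that of Il18 in every library, while neither chain of the IL-18 receptor reached the threshold.

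Of the IL-17 receptors, Il17rc was at 3.61, 4.23 and 1.66 FPKM with Ang II and at 2.18, 2.96 and 2.18 with Tec (log2 fold change -0.23 ± 0.26). Its partner for IL-17A and IL-17F, Il17ra, stayed below the threshold, at 0.56, 0.76 and 0.22 FPKM with Ang II and 0.25, 0.39 and 0.24 with Tec. The groups overlapped for both. Il17rd, which also restrains fibroblast growth factor signalling, was at 0.95, 0.74 and 0.52 FPKM with Ang II and at 0.55, 0.71 and 0.41 with Tec. Il20rb, a chain of the receptors for IL-19, IL-20 and IL-24, lay between 0.31 and 0.54 FPKM, and its highest library was Ang II + Tec replicate 1.

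Set beside their receptors, few ligands had a complete pair in these hearts. Of 23 member ligands listed with a receptor under their symbol, 7 had all receptor chains detected: Il1a, Il1b, Il6, Il11, Il27, Il10 and Il34. For 6 of these 7 the ligand itself was below the threshold, and Il34 was the exception. Of the other detected ligands, Il33 lacked Il1rl1, Il15 lacked Il2rb and Il16 lacked Cd4, each below the threshold, and no receptor was listed for Il17d. The member Il1f9 encodes IL-36 gamma, which the receptor list names Il36g, so these counts leave it out. Both of its listed chains, Il1rl2 and Il1rap, were detected, while Il1f9 itself reached 0.04 FPKM at most.

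Ang II replicate 2 held the highest value of 15 of the 23 detected members (65.2%), as it did for 44% of all genes tested, Ang II replicate 1 of 5, Ang II + Tec replicate 2 of 2 (Il11ra2 and Il15ra) and Ang II replicate 3 of 1 (Il15).

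The signalling genes that interleukin receptors share were described from lists of known components. Of 10 tested JAK and STAT genes, 2 were lower with Tec at an unadjusted p under 0.05 and 0 higher, near the 16.5% of all genes. Their median log2 fold change was -0.20 (-0.17 for all genes) and -0.0090 after median-of-ratios scaling. Among them was Stat2, which signals for interferons, at 3.85, 3.53 and 2.80 FPKM with Ang II and 1.97, 2.48 and 2.07 with Tec (log2 fold change -0.47 ± 0.14, adjusted p = 0.218, limma). The most abundant was Jak1, at 13.3, 14.6 and 13.8 FPKM with Ang II and 12.5, 14.6 and 11.2 with Tec. Stat3 and Stat6, the factors of the IL-6 and IL-4 receptors, had log2 fold changes of -0.27 ± 0.18 and -0.24 ± 0.16.

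Of 7 tested SOCS genes, the feedback inhibitors that STAT proteins induce, 2 were lower at an unadjusted p under 0.05 and 0 higher (16.5% and 2.09% of all genes), with a median log2 fold change of -0.31, or -0.11 after median-of-ratios scaling. Socs2 was at 7.78, 8.24 and 4.87 FPKM with Ang II and at 3.14, 4.29 and 3.46 with Tec, without overlap (log2 fold change -0.76 ± 0.20, adjusted p = 0.201, limma). Cish was at 21.5, 16.7 and 15.7 FPKM with Ang II and at 13.5, 12.1 and 12.5 with Tec, also without overlap (-0.46 ± 0.14, adjusted p = 0.221, limma). Of 13 adaptors of the IL-1 and IL-17 receptors, 0 passed that limit in either direction (16.5% of all genes did so lower). Their median log2 fold change was -0.13, against -0.17 for all genes, and turned to 0.063 after median-of-ratios scaling.

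Of 20 partners that carry other names, 11 were tested, and 4 were lower and 1 higher at an unadjusted p under 0.05 (16.5% and 2.09% of all genes). Their median log2 fold change was -0.23, or -0.10 after median-of-ratios scaling. Besides Csf1 and Csf1r, the lower ones included Crlf2, the receptor of thymic stromal lymphopoietin (log2 fold change -0.67 ± 0.20, adjusted p = 0.218, limma). Ctf1, the gp130 cytokine cardiotrophin 1 that makes cardiomyocytes grow, was at 1.60, 1.42 and 2.96 FPKM with Ang II and at 2.95, 2.98 and 3.09 with Tec (log2 fold change 0.46 ± 0.19, adjusted p = 0.266, limma). Ang II replicate 3 lay with the Ang II + Tec libraries, and the groups overlapped.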

How the data were processed

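RNA was measured in hearts of 3 Ang II and 3 Ang II + Tec mice, grouped by the treatment label. The authors trimmed the reads with Cutadapt, made poly(A) libraries and deposited FPKM per gene and library, rounded to 2 decimals. The submitters' processing notes name Bowtie 0.12.2, HISAT2 2.0, StringTie 1.3.0 and the build mm8, with no role given. The gene coordinates equalled those of GENCODE M21 (GRCm38) for 86.8% of 30832 shared genes and for 51 of the 68 members. FPKM keep no totals, so no counting interval can be given, and the error is the spread between libraries.

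Genes that reached 0.5 FPKM in 3 or more libraries were fitted on log2(FPKM + 1), with a pseudocount of 1, with limma 3.58.1 in R 4.3.3 (lmFit, eBayes with trend) and Benjamini-Hochberg adjustment over 13089 genes. This scale understates the fold change of low genes. Members below the threshold were compared with the exact permutation test of the difference of means, two-sided, over 20 assignments. The fit was tested on simulated data. Alternatives changed the scaling, pseudocount, filter, variance model, library weights and block, or left out each library. The members, lists and tests were chosen with earlier results of these data known. Named were all detected members, Il1b and Il6, members that reached 0.5 FPKM in any library, and up to 4 genes of a list (highest mean and lowest unadjusted p). Others named for a count, as receptor partners or in the plot of low genes were picked after their values were seen. Lists of markers of B cells, neutrophils, mast cells and skeletal muscle served to describe the tissue. Motifs were searched in RefSeq promoters (GRCm38.p6). Single values of some genes on the lists are not reported here.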

Additional observations from a re-analysis of the deposited data

How the results depend on the processing

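No member was called in the analysis reported or under any alternative run. Under median-of-ratios scaling 1 member had groups that did not overlap and was higher with Tec, and the median of the ligands was 0.0053, against 0.0087 with quantile normalization, both above 0. The count of members lower at an unadjusted p under 0.05, 6 as reported, was 2 with quantile normalization (7.85% of all genes) and 13 with array weights (42.3% of all genes), whose estimation stopped before it converged and where 10 members had an adjusted p under 0.05 in limma, and the count of those higher, 1 as reported, was 0 with no filter, with a filter of FPKM of at least 1 and with array weights. With array weights 522 of all genes were called, which also needs a log2 fold change of at least 1. The share of all genes at an adjusted p under 0.05 alone was not computed, so the count of 10 is no result about the members. With no filter, 64 members were tested, 10 had groups that did not overlap and were lower, and the median log2 fold change was -0.046 for the members and for the receptors (-0.037 for all genes). The correlations of the deviations of same-numbered libraries were -0.0394, 0.429 and 0.379. Differently numbered libraries were not compared in this way, so whether the replicate numbers pair the libraries was not tested. With the replicate block the count of members lower at an unadjusted p under 0.05 was 10 (22.9% of all genes, limma), with no member called. Leaving out 1 library gave 3 to 15 members lower (6.29% to 39.3% of all genes) and 0 to 1 higher at that limit, 6 to 16 without overlap and lower and 0 to 1 without overlap and higher, and medians of -0.52 to -0.19 (members), -0.34 to -0.076 (ligands) and -0.52 to -0.23 (receptors). For these alternatives the share of all genes without overlap was not computed, so their counts without overlap are no result about the members. The cause of these shifts was not tested.

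The sign changed for 8 genes (Il16, Il6st, Il6ra, Il15, Il17d, Il10rb, Il15ra and Il33). Under median-of-ratios scaling and quantile normalization the values were 0.038 and 0.067 for Il16, 0.17 and 0.17 for Il6st, 0.070 and 0.12 for Il6ra, 0.083 and 0.073 for Il15, and 0.0053 and 0.0087 for Il17d. With array weights Il15 was at 0.22. With the atrial covariate, added after seeing the data, Il16 was at 0.018, Il6st at 0.12, Il10rb at -0.0086, Il33 at 0.10 and Il6ra at 0.013. Leaving out 1 library gave -0.18 to 0.022 for Il16, -0.28 to 0.086 for Il6st, -0.076 to 0.056 for Il6ra, -0.32 to 0.054 for Il15, -0.048 to 0.029 for Il10rb and -0.048 to 0.23 for Il15ra. The other 15 detected members kept their sign under every alternative in which they were tested. At this depth values under 0.1 FPKM rest on few fragments.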

Other observations

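Il4 and Il21 carry interleukin names, but the deposited table lists only a processed transcript for Il4 and a retained intron for Il21, so neither met the rule. Il4 was at 0.11, 0.32 and 0.17 FPKM in Ang II replicates 1, 2 and 3 and at 0.21, 0.30 and 0.13 in Ang II + Tec replicates 1, 2 and 3. Il21 was at 0.01 FPKM in Ang II replicate 1 and listed at 0 in the other libraries.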
